A study of Mus musculus with 6 samples.

Results

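The transmembrane mucin genes *Muc1*, *Muc13*, *Muc15* and *Muc20* were taken from the deposited table of 54532 genes by their Ensembl identifiers. These 4 genes were selected on the measured difference between the groups, since *Muc13* had the largest well-measured increase after the transgene, and the other 3 were taken as mucins of the same kind. Their values between the groups are therefore given as a description, without a test. All 4 genes had a read in at least 1 library, and 3 of them, all but *Muc15*, passed the filter on low counts. RNA was sequenced from whole kidneys of male C57BL/6 mice. Control mice carried KsprtTA alone and are labelled wild type, and KSPAPN mice carried KsprtTA with TRE-Adiponectin. KsprtTA, shared by both groups, is a doxycycline-responsive activator under the Ksp promoter, which is active in the epithelium of renal tubules, proximal segments and collecting ducts included. Both groups received doxycycline at 600 mg/kg in normal chow for 4 days. RNA of 3 mice was pooled for each library (9 mice per group), and the spread given below is one between pools. The age of the mice was not given in the sources used here.

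Transmembrane mucins are large glycoproteins of the apical membrane of epithelial cells. Their outer part is rich in serine, threonine and proline and carries dense O-linked glycans, which form a protective layer in the lumen, and their short cytoplasmic tails take part in signalling with growth factor receptors. *Muc13* is best known from the intestinal surface and has domains like those of epidermal growth factor. *Muc1* is found along the distal nephron and collecting duct, and frameshift mutations of the human gene cause an inherited tubulointerstitial kidney disease. *Muc20*, a mucin known from kidney, binds the receptor Met, and *Muc15* is known from the milk fat globule membrane.

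*Muc13* (ENSMUSG00000022824) lies on the forward strand of chromosome 16 of GRCm38 from 33794037 to 33819934, and *Muc20* (ENSMUSG00000035638) on the reverse strand of the same chromosome from 32777419 to 32797435, 997 kb away. The gene of the transgene's product, *Adipoq*, is also on chromosome 16, 10.6 Mb from *Muc13*. *Muc1* (ENSMUSG00000042784) lies on the forward strand of chromosome 3 from 89229057 to 89233381. *Muc15* (ENSMUSG00000050808) lies on the forward strand of chromosome 2 from 110721340 to 110739527, wholly within *Ano3* on the opposite strand.

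The sequences before the annotated start sites of *Muc13*, *Muc1* and *Muc20* are shown because *Muc13* and *Muc1* had higher mean levels in KSPAPN and *Muc20* did not, and because *Muc13* has 2 RefSeq start windows. They are the 5′ to 3′ sequences of RefSeq (GRCm38.p6) on the strand of each gene, 250 bases before the start, cut where an annotated exon of that gene begins. Capitals mark matches, on either strand, to AGGTCA (a hexamer recognized by nuclear receptors), TATAAA (the TATA box) and GGGCGG (the GC box). The letters were chosen after the windows had been read.
*Muc13*, first start, chr16:33793787-33794036, forward strand: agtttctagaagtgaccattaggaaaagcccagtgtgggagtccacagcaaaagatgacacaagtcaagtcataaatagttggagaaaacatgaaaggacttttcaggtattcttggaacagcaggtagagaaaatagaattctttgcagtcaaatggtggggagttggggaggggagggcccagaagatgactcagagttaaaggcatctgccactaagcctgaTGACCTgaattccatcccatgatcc
*Muc13*, second start, chr16:33794239-33794366, forward strand: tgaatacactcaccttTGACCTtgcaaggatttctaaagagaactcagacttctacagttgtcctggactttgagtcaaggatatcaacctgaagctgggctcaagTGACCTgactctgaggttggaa
*Muc1*, chr3:89228806-89229055, forward strand: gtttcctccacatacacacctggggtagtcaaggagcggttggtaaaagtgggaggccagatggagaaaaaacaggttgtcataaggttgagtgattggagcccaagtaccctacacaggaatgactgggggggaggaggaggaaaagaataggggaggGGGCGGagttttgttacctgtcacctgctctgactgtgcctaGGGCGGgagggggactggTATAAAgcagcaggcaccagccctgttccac
*Muc20*, chr16:32797436-32797685, reverse strand: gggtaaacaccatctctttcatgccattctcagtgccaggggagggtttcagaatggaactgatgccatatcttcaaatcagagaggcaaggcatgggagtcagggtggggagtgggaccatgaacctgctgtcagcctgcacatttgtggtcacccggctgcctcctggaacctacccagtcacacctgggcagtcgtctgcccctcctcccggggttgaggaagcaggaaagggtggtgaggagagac

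Both *Muc13* windows held AGGTCA on the opposite strand. Counted on either strand, 14.0% of the 32817 start windows of that length hold it. In the second window it occurred at 2 places, 234 to 229 and 144 to 139 bases before the start site. The *Muc1* window held TATAAA from 31 to 26 bases before the start and 2 copies of GGGCGG, found in 12.4% and 32.7% of all windows. The *Muc20* window held none of the searched letters. A match is a description of letters and does not show binding.

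*Adipoq* was checked first as the overexpressed gene. It had 2, 0 and 2 reads in the Control libraries and 24629, 17483 and 26811 in the KSPAPN libraries. Libraries held 17183358 to 20871173 reads counted on genes. In Control, the kidney markers *Umod* and *Slc34a1* were at 678 ± 52.6 and 1212 ± 136 FPKM (fragments scaled by gene length and library size, with SD, n = 3 libraries). Hepatocyte genes were looked at because the deposited extraction text speaks of liver. *Alb* (albumin) had 111, 100 and 47 reads in Control and 15, 191 and 213 in KSPAPN. *Cps1*, of the urea cycle, had 0 reads in every Control library and 1, 14 and 31 in KSPAPN, and *Ahsg*, for a plasma protein, had 1, 0 and 1 and then 2, 14 and 15. KSPAPN replicates 2 and 3 thus held more reads of these 3 genes than the other 4 libraries. Other hepatocyte markers did not share this pattern. *Fgg* had 107, 101 and 58 reads in Control and 46, 61 and 40 in KSPAPN. *Fga*, *Fgb* and *Apob* did not stand above the other libraries in both of these replicates. *Ttr*, for a plasma carrier protein, was at 114 ± 39.7 FPKM in Control and 50.7 ± 12.6 in KSPAPN, and the summed FPKM of the 8 hepatocyte markers was 84.7 to 171 and 57.0 to 88.7. The part of these reads in the results below was not tested.

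*Muc13* was higher in KSPAPN. Its reads numbered 668, 884 and 669 in Control and 4350, 2367 and 2156 in KSPAPN. In CPM, the count scaled to the library's TMM-normalized total, the Control libraries stood at 36.9, 52.3 and 39.2 and the KSPAPN libraries at 195, 132 and 107. The groups did not overlap, and the lowest KSPAPN value was 2.05 times the highest Control value. KSPAPN replicate 1 was the highest and replicate 3 the lowest. Mean FPKM was 13.7 ± 2.67 (SD, n = 3) in Control and 46.1 ± 13.9 (SD, n = 3) in KSPAPN. The log2 fold change from edgeR was 1.76 (standard error 0.21), or 3.38-fold. It was 1.50 without KSPAPN replicate 1.

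KSPAPN replicate 1, the library highest in *Muc13*, also stood apart from the other KSPAPN libraries in some markers of tubular segments. *Aqp2*, the water channel of principal cells, was at 537 FPKM in it and at 242 and 227 FPKM in replicates 2 and 3, with 356, 278 and 257 FPKM in Control. *Pvalb*, a marker of the distal convoluted tubule, was at 2.28 CPM against 18.2 and 13.1, and *Slc5a12* of the proximal tubule at 98.4 CPM against 197 and 232. The transcription factor gene *Pax2* was at 86.6 CPM against 49.0 and 43.0, and the injury gene *Havcr1* at 4.43 CPM against 1.34 and 1.39. Some other markers of the same cells went the other way in this library. *Aqp4* of principal cells was at 33.1 CPM against 55.9 and 38.3. *Slc34a1* of the proximal tubule was at 5779 CPM against 4675 and 5248. No shift of a whole segment is read from these values. The choice of these genes was made with their values known, and their part in the level of *Muc13* was not tested. Without this library the KSPAPN values of *Muc13*, 132 and 107 CPM, were still above all of Control.

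The spread of *Muc13* was also wider in KSPAPN. The highest library was 1.82 times the lowest there and 1.42 times in Control, with coefficients of variation of 31.2% and 19.4%. The library with the most *Adipoq* reads, KSPAPN replicate 3, had the lowest CPM of *Muc13* among the KSPAPN libraries. Per 100 *Adipoq* reads, the 3 libraries held 17.7, 13.5 and 8.04 *Muc13* reads. With 3 libraries no relation between the genes can be tested.

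**Figure D1:**
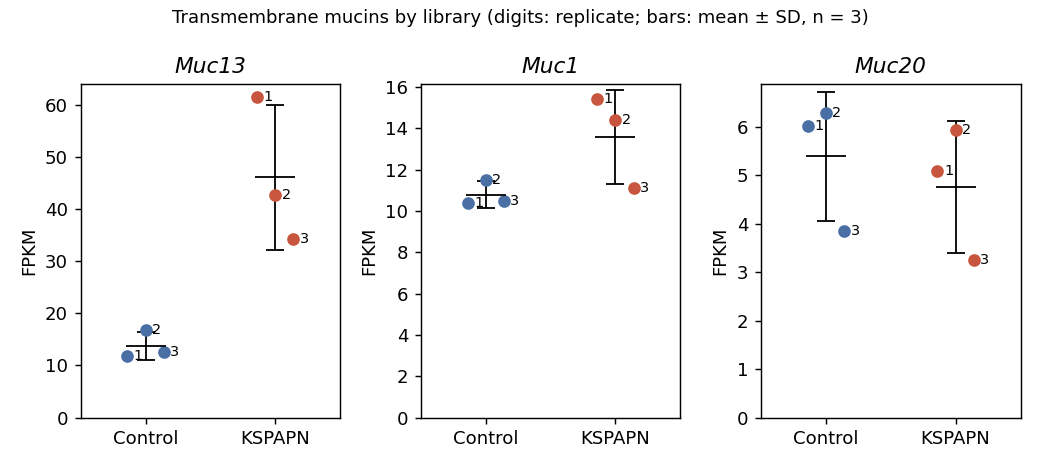
FPKM of *Muc13*, *Muc1* and *Muc20* in each library of Control and KSPAPN, with the replicate number beside each point and the mean ± SD (n = 3) as bars. The *Muc13* points of KSPAPN lie between 34.2 and 61.5, all above those of Control at 11.9 to 16.8, while the groups overlap for *Muc1* and *Muc20*.

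*Muc1* had a higher mean in KSPAPN, with groups that overlapped. The Control libraries held 450, 468 and 432 reads and the KSPAPN libraries 842, 619 and 538. Its CPM was 24.9, 27.7 and 25.3 in Control and 37.7, 34.5 and 26.7 in KSPAPN. KSPAPN replicates 1 and 2 lay above all of Control, and replicate 3 lay within its range. The log2 fold change was 0.35 (standard error 0.14), or 1.27-fold, from 10.8 ± 0.632 to 13.6 ± 2.28 FPKM (SD, n = 3). It was 0.26 without KSPAPN replicate 1 and 0.48 without KSPAPN replicate 3.

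*Muc20* held 449, 439 and 273 reads in Control and 477, 437 and 271 in KSPAPN. Its CPM was 24.8, 26.0 and 16.0 in Control and 21.4, 24.4 and 13.5 in KSPAPN. Replicate 3 was the lowest library of both groups, and the groups overlapped. Mean FPKM was 5.39 ± 1.33 (SD, n = 3) in Control and 4.76 ± 1.37 (SD, n = 3) in KSPAPN. The log2 fold change of -0.17 was smaller than its standard error of 0.23. It was 0.042 without KSPAPN replicate 3, and between -0.049 and -0.36 with any other library left out. In its longest transcript, 9.29% of stretches of 100 bases also occur in a transcript of *Muc4*, a mucin gene on the opposite strand. These genes overlap by 4973 bases, and how reads shared by them were counted is not given. *Muc4* held 58 reads in all 6 libraries together.

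*Muc15* had 3 reads in Control replicate 3 and 0 in the other 5 libraries. A count of 0 allows up to 3 reads, or 0.134 to 0.177 CPM per library, for counting error only. Both groups were at or under this limit and no fold was computed.

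Of the 3 mucins tested, 1 had groups that did not overlap, *Muc13*. An adjusted p under 0.05 from edgeR was reached by 2.65% of all genes tested. Over all 16017 genes tested, every KSPAPN library lay above every Control library in 11.4% and below in 13.1%. A log2 fold change of at least that of *Muc1* was found in 12.2% of genes, and one of at least that of *Muc13* in 0.0499%, or 8 genes with *Muc13* itself. The rule used these differences, and nothing is read from the shares. Among the 8, *Adipoq* and *Muc13* had an average over all libraries well above 1 FPKM, and the others but *Clstn3* were at 0.225 FPKM or less. *Clstn3*, just outside the choice, had a larger log2 fold change of 2.15 with a standard error of 0.51. Well-measured here means called by edgeR, with a mean of at least 1 FPKM and no overlap. Next below *Muc13* among such genes were *Xlr3b* at 1.49 (standard error 0.30), *Trim46* at 1.43 (standard error 0.18) and *Gstm5* at 1.22 (standard error 0.14).

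**Figure D2:**
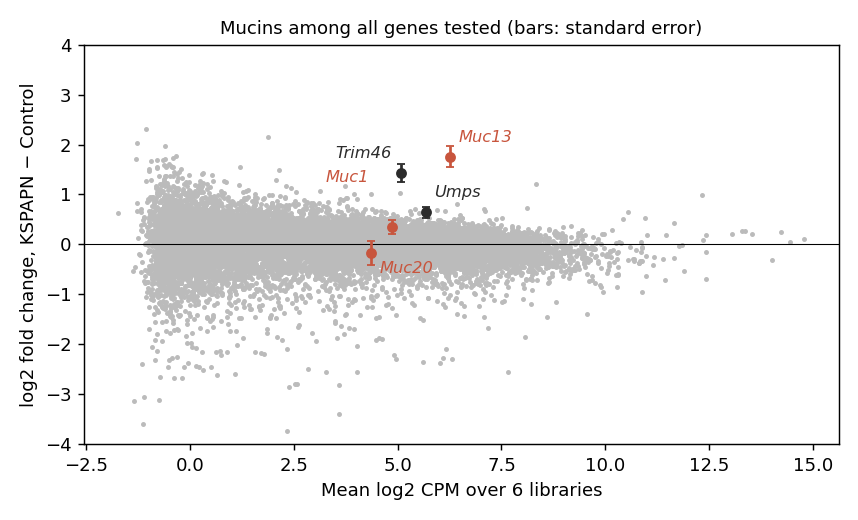
Log2 fold change (KSPAPN minus Control) against mean log2 CPM over 6 libraries, with a grey point for each gene tested and standard errors as bars for the named genes. *Muc13*, at 1.76, stands above the genes of like abundance, while *Muc1* at 0.35 and *Muc20* at -0.17 lie within the cloud. 3 genes lie beyond the axis.

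In Control, the order of the levels per length was *Muc13*, *Muc1*, *Muc20* and *Muc15*. The step from *Muc1* to *Muc13* was small: the ratio of their FPKM was 1.15, 1.46 and 1.20 in the 3 Control libraries, and *Muc13* lay above *Muc1* in each, at 11.9 FPKM or more against 11.5 or less. *Muc1* was 1.72, 1.83 and 2.72 times *Muc20*, and their ranges did not overlap. In KSPAPN the order was the same and the first step was wider, with *Muc13* at 3.99, 2.95 and 3.09 times *Muc1*. *Muc13* held 45.7% ± 3.34 of the summed FPKM of the members in Control and 71.1% ± 3.70 in KSPAPN (SD, n = 3). The share of *Muc1* was 36.3% ± 2.85 and 21.5% ± 2.34, and that of *Muc20* 17.9% ± 3.50 and 7.44% ± 1.74. The summed FPKM was 28.2, 34.6 and 26.9 in Control and 82.0, 63.0 and 48.6 in KSPAPN. By mean FPKM among 13805 protein-coding genes tested, *Muc13* was at place 3362 in Control and 922 in KSPAPN, *Muc1* at 4126 and 3276, and *Muc20* at 6575 and 7029.

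**Figure D3:**
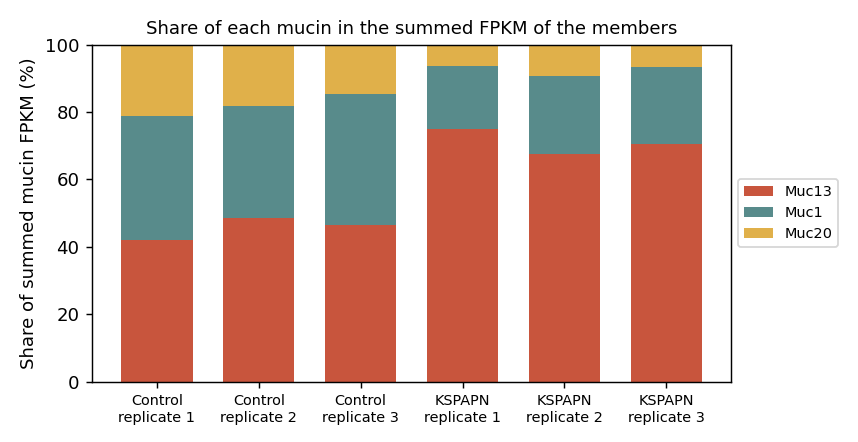
Share (%) of *Muc13*, *Muc1* and *Muc20* in the summed FPKM of the members in each library (*Muc15*, at most 0.178%, is not visible). The share of *Muc13* is 42.0% to 48.5% in the Control bars and 67.7% to 75.0% in the KSPAPN bars.

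Over the 6 libraries, Pearson's r of log2 CPM was 0.89 between *Muc13* and *Muc1*, -0.08 between *Muc13* and *Muc20*, and 0.30 between *Muc1* and *Muc20*. These are descriptions over libraries of both groups, in which the difference between the groups enters every value. Among the 12247 other genes tested with a mean FPKM of at least 1, those most like *Muc13* were *Cux1*, *Kpna3*, *Idua*, *Magi3*, *Exoc6b*, *Fam69a*, *Pcyox1*, *Abca5*, *Hoxc8* and *Fkbpl*, with r from 0.990 to 0.997. Their differences between the groups were smaller, with log2 fold changes from 0.21 for *Exoc6b* to 0.66 for *Fkbpl*. *Magi3*, for a scaffold protein of epithelial junctions, was at 2.98 and 4.38 FPKM, and *Cux1*, for a homeodomain transcription factor, at 13.4 and 15.8 FPKM (means of Control and KSPAPN). The 3 genes most like *Muc1* were *Scaf8*, *Mymx* and *Rnd2* (r from 0.984 to 0.992), and those most like *Muc20* were *Akr1b3*, *Rpp38* and *Brd3os* (r from 0.978 to 0.993).

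The 5 tested genes nearest to each mucin on either side were then compared, 40 genes in all. After adjustment, edgeR called 2 of the 40 higher and 1 lower in KSPAPN (adjusted p under 0.05). Over all genes tested the shares were 0.393% (63 genes) and 2.25% (361 genes), and when only total counts were used 71 genes were higher and 195 lower. The median log2 fold change of the neighbours was 0.028, and that of all genes tested 0.012.

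*Trim46*, which encodes a tripartite motif protein that organizes microtubules in neurons, is the neighbour of *Muc1*. It lies on chromosome 3 from 89234177 to 89246309 on the reverse strand, so that the 3′ ends of the genes face each other across 795 bases. It had 324, 279 and 490 reads in Control and 1305, 1003 and 1113 in KSPAPN. The Control libraries stood at 17.9, 16.5 and 28.7 CPM and the KSPAPN libraries at 58.4, 56.0 and 55.3 CPM. All KSPAPN libraries were above all Control libraries, and they lay close together. *Trim46* rose from 5.40 ± 1.70 to 14.5 ± 0.306 FPKM (SD, n = 3), by 1.43 on the log2 scale (standard error 0.18; edgeR adjusted p = 0.00613). It was past the threshold with each library left out, at 1.28 to 1.72. No stretch of 100 bases of its longest transcript occurs in a transcript of another gene, and the same holds for *Muc1*. Since it is not given whether strand was counted, reads running past either 3′ end could have been counted for the other gene, which was not tested. Its 5′ end overlaps *Krtcap2*, on the other strand, by 344 bases, and *Krtcap2* differed by -0.22 on the log2 scale (standard error 0.13, edgeR adjusted p = 0.387). On the other side of *Muc1*, *Mtx1* differed by -0.32 (standard error 0.12, edgeR adjusted p = 0.185), and *Thbs3* was at 0.642 ± 0.143 and 0.673 ± 0.171 FPKM.

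Beside *Muc13*, *Heg1* (22460 bases away) was at 2.56 ± 0.232 and 2.76 ± 0.550 FPKM, and *Itgb5*, for an integrin subunit (9730 bases away), at 35.9 ± 1.66 and 35.4 ± 5.93 FPKM (SD, n = 3). Neither passed the test. The next gene after *Itgb5*, *Umps*, encodes the enzyme that makes uridine monophosphate, and it passed. Its CPM was 37.6, 38.3 and 46.7 in Control and 61.6, 62.1 and 68.1 in KSPAPN, without overlap. *Umps* rose by 0.65 on the log2 scale (standard error 0.11, edgeR adjusted p = 0.0165). The call was lost without Control replicate 1, Control replicate 2 or KSPAPN replicate 3 (adjusted p = 0.0960, 0.0632 and 0.0744 from edgeR). Within the gene, *Muc13* overlaps the antisense transcript *Gm15657*, which held 11 reads in all libraries, and 1.85% of its stretches of 100 bases are shared with it.

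On the side of *Muc20*, *Slc51a*, for a subunit of the bile acid and steroid transporter OST, lies 289539 bases away. Its CPM was 64.3, 74.3 and 55.3 in Control and 22.7, 28.3 and 32.3 in KSPAPN, all lower. *Slc51a* fell from 19.7 ± 2.92 to 8.43 ± 1.53 FPKM (SD, n = 3), or -1.22 on the log2 scale (standard error 0.15, edgeR adjusted p = 0.00581). The nearest tested genes, *Tnk2* and *Rubcn*, were at 4.79 ± 0.872 and 4.20 ± 0.996 FPKM and at 6.50 ± 0.221 and 7.29 ± 0.624 FPKM and did not pass. Beside *Muc15*, *Ano3* was at 1.54 and 1.51 FPKM and *Slc5a12*, for a lactate transporter, at 39.2 and 42.1 FPKM (means of Control and KSPAPN).

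**Figure D4:**
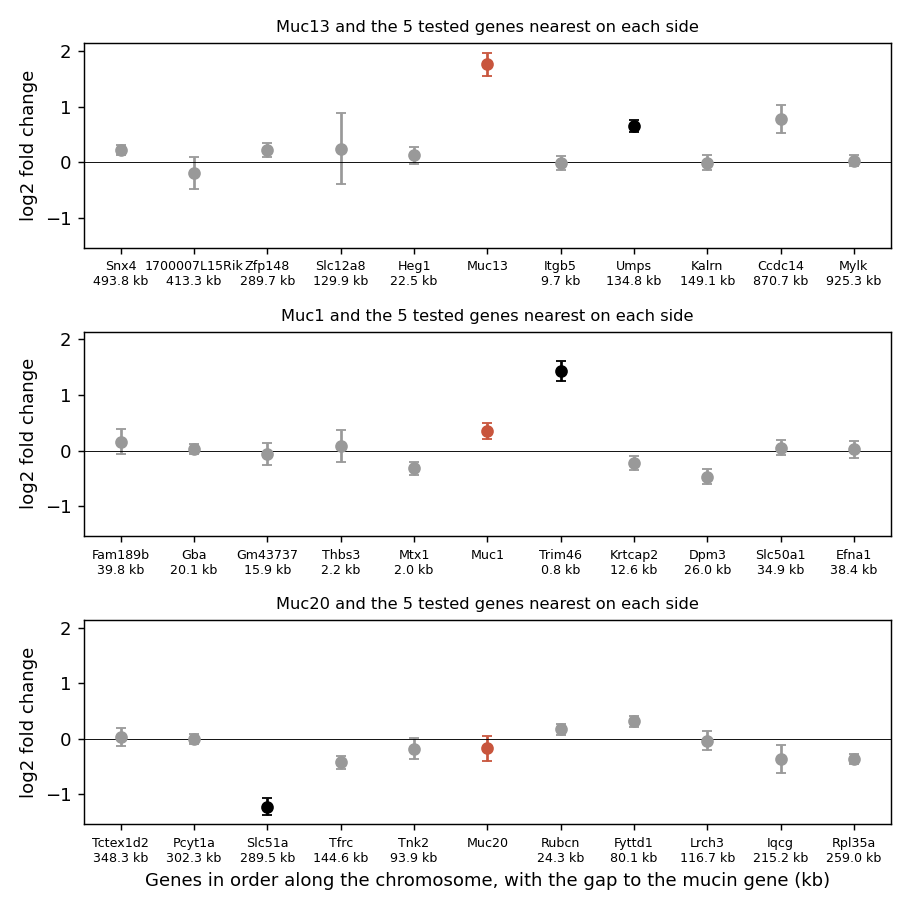
Log2 fold change (KSPAPN minus Control) with its standard error for *Muc13*, *Muc1* and *Muc20* (red) and the 5 tested genes nearest on each side, in the order of the chromosome with the gap in kb; black marks genes called by edgeR. *Trim46* (1.43), *Umps* (0.65) and *Slc51a* (-1.22) are the black points, and most neighbours lie near 0.

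Other mucins and sialomucins were mostly at the lower end of detection. Of 22 listed genes, 19 were matched and 8 were tested, and 0 passed at an adjusted p or at an unadjusted p under 0.05 from edgeR, and 0 did in DESeq2 after adjustment. All 8 had a log2 fold change above 0, as did 51.9% of all genes tested, with a median of 0.16 against 0.012 over all genes. The secreted gel-forming mucins *Muc2*, *Muc5ac* and *Muc5b* were at means under 0.05 FPKM and were not tested, and *Muc6* was at 0.249 ± 0.0293 and 0.267 ± 0.129 FPKM (SD, n = 3). The most abundant were *Cd164*, a sialomucin of endosomes and lysosomes, at 80.0 ± 7.43 and 87.7 ± 5.23 FPKM, and *Podxl*, the sialomucin podocalyxin of podocytes and endothelium, at 29.2 ± 5.44 and 34.5 ± 6.54 FPKM. Their log2 fold changes were 0.14 (standard error 0.098) and 0.24 (standard error 0.16). *Emcn*, an endothelial sialomucin, was at 8.90 ± 0.820 and 9.20 ± 0.555 FPKM.

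Enzymes of mucin-type O-glycosylation build the glycans of mucins. Of 34 listed, 25 were tested, and edgeR called 0 higher and 1 lower after adjustment. The median log2 fold change was 0.001. The first step is made by the Galnt enzymes, which add N-acetylgalactosamine to serine or threonine. *Galnt14* fell from 15.2 ± 0.291 to 11.4 ± 0.898 FPKM (SD, n = 3), or -0.41 on the log2 scale (standard error 0.088, edgeR adjusted p = 0.0388), and no longer passed when any of the 6 libraries was left out (adjusted p from 0.0515 to 0.168). *Galnt11*, the most abundant of them at 86.1 ± 7.36 and 64.2 ± 13.7 FPKM, and *Galnt18*, at 19.7 ± 1.92 and 15.3 ± 0.361 FPKM, had log2 fold changes of -0.42 and -0.36 (adjusted p = 0.157 and 0.0847 from edgeR). *Galnt1* and *Galnt3* were at 38.0 and 15.1 FPKM in Control and at 35.6 and 14.7 in KSPAPN. Core extension by *C1galt1* and its chaperone *C1galt1c1* was represented by 16.5 and 22.8 FPKM in Control and 18.7 and 25.7 in KSPAPN. *Gcnt1*, which branches the glycan, was at 125 ± 12.5 and 126 ± 29.6 FPKM, and *St6galnac2*, which adds sialic acid, differed by -0.27 on the log2 scale (standard error 0.11, edgeR adjusted p = 0.226).

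Proteins known to act with transmembrane mucins were represented by 17 genes, all of them tested. 0 of them were called after adjustment by edgeR or DESeq2, and 3 were higher and 1 was lower at an unadjusted p under 0.05 from edgeR. Over all genes tested, 7.52% were higher and 11.2% lower at that unadjusted threshold, which holds for the counts of this kind in the lists that follow. The median log2 fold change was 0.10. The receptors *Egfr*, *Erbb2* and *Met* were at 5.72, 18.0 and 26.2 FPKM in Control and at 5.91, 19.2 and 24.7 in KSPAPN. *Erbb3*, of the same receptor family, was the 1 that was lower, at 119, 129 and 122 CPM in Control and 90.2, 98.3 and 121 CPM in KSPAPN (-0.26 on the log2 scale, standard error 0.11, edgeR adjusted p = 0.254). *Grb2*, the adaptor of receptor tyrosine kinases, differed by 0.23 on the log2 scale (standard error 0.10), and *Adam17*, a protease that sheds mucin ectodomains, of 0.24 (standard error 0.10). *Ctnnb1* (beta-catenin), *Lgals3* (galectin-3) and *Trpv5*, the calcium channel of the distal tubule, were at 73.8, 17.9 and 4.82 FPKM in Control and at 76.7, 18.0 and 5.23 in KSPAPN.

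Of 12 transcription factors of tubular and barrier epithelia, 0 passed the adjusted test of edgeR, 2 were higher and 2 lower at an unadjusted p under 0.05, and 2 were lower in DESeq2 after adjustment. Over all genes, DESeq2 called 180 higher and 743 lower, more than edgeR did, and its counts in the lists that follow stand beside these. *Hnf4g*, a factor of proximal tubule and intestine, was at 3.05 ± 0.421 and 1.37 ± 0.562 FPKM (log2 fold change -1.16, standard error 0.28, edgeR adjusted p = 0.0562, DESeq2 adjusted p = 0.0032). *Hnf4a* was at 176 ± 5.77 and 179.8 ± 26.3 FPKM. The 2 that were higher before adjustment were *Ehf*, a factor of barrier epithelia, at 6.82 ± 1.03 and 9.24 ± 1.63 FPKM (0.44 on the log2 scale, edgeR adjusted p = 0.133), and *Tfap2b*, of the distal nephron, at 47.8, 43.0 and 45.8 CPM in Control and 53.6, 55.9 and 53.3 CPM in KSPAPN (0.25, adjusted p = 0.158). *Elf3*, also of barrier epithelia, was at 10.1 ± 0.651 and 11.1 ± 1.37 FPKM.

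Markers of cells that could carry these mucins were set beside the values. In whole kidney, fewer cells of a type and less RNA per cell cannot be told apart. Of 10 markers of intestinal epithelium, where *Muc13* is abundant, *Cdx1*, *Cdx2*, *Cdh17*, *Reg4* and *Isx* had no read in any library, and the 2 that were tested, *Vil1* and *Lgals4*, are also expressed in tubules or were low (72.6 and 5.45 FPKM in Control, 74.5 and 5.42 in KSPAPN). The remaining markers had too few reads to be tested. *Krt20* had 5, 8 and 3 reads in Control and 14, 8 and 10 in KSPAPN. *Fabp2* had 0, 0 and 0 and then 0, 1 and 4, and *Tff3* had 1 read, in KSPAPN replicate 1. The summed FPKM of the 8 urothelial markers was 23.9 to 26.6 in Control and 17.6 to 27.4 in KSPAPN, and 0 of 8 passed in edgeR or DESeq2, with 1 lower at an unadjusted p under 0.05. This was *Upk3a*, of the uroplakin plaque (log2 fold change -0.66, standard error 0.27, adjusted p = 0.22 from edgeR). Of 10 tubular injury genes, 9 were tested and 0 passed in edgeR, with 1 higher and 1 lower at an unadjusted p under 0.05. The first was *Cd44*, for a hyaluronan receptor, at 0.208 ± 0.0604 and 0.357 ± 0.0740 FPKM (0.79 on the log2 scale, edgeR adjusted p = 0.239). The second was *Clu*, for clusterin, at 49.0 ± 1.18 and 37.0 ± 5.72 FPKM (-0.40, adjusted p = 0.101 from edgeR), the 1 gene that DESeq2 called lower. It passed in edgeR without KSPAPN replicate 1 (adjusted p = 0.0116). *Havcr1* (KIM-1) was at 0.685 ± 0.230 and 0.997 ± 0.729 FPKM, with the higher mean resting on KSPAPN replicate 1, and *Lcn2* at 1.27 ± 0.150 and 1.40 ± 0.463 FPKM.

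Among nephron segments, 2 of 10 proximal tubule markers fell, against 2.25% of all genes tested, and the list's median log2 fold change was -0.24. These were *Slc7a13* of the last proximal segment, from 307 ± 75.0 to 111 ± 45.1 FPKM (log2 fold change -1.46, adjusted p = 0.0259 from edgeR), and *Slc22a6*, an organic anion transporter (-0.46, adjusted p = 0.0388). The summed FPKM of this list was 2508 to 2954 in Control and 2191 to 2249.7 in KSPAPN, without overlap. Of the thick ascending limb markers, 1 of 8 rose, the cotransporter gene *Slc12a1* (0.52, adjusted p = 0.0437 from edgeR), against 0.393% of all genes. *Cldn10*, for a claudin of the same segment, was lower without overlap, at 69.2 ± 8.59 and 52.1 ± 5.22 FPKM (-0.41, adjusted p = 0.0881 from edgeR and 0.0285 from DESeq2). The list's median was -0.044 and its summed FPKM 1062 to 1199 and 1053 to 1320.3. Of 8 markers of the distal convoluted and connecting tubule 1 fell, *Emx1* (-0.48, adjusted p = 0.0483 from edgeR), against 2.25% of all genes, with a median of -0.050. Of 7 principal cell markers tested and 8 intercalated cell markers, 0 passed in edgeR, with 3 and 2 lower at an unadjusted p under 0.05, and medians of -0.30 and -0.012. DESeq2 called 0 and 2 of them lower, and 743 genes lower over all genes. The call of *Slc7a13* was lost without Control replicate 1, Control replicate 2 or KSPAPN replicate 3 (adjusted p = 0.113, 0.0770 and 0.0972 from edgeR). Those of *Slc22a6*, *Slc12a1* and *Emx1* were lost without any 1 of 5 libraries (adjusted p from 0.0744 to 0.215 from edgeR) and held without KSPAPN replicate 1. The part of these shifts in the difference of *Muc13* was not tested.

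**Figure D5:**
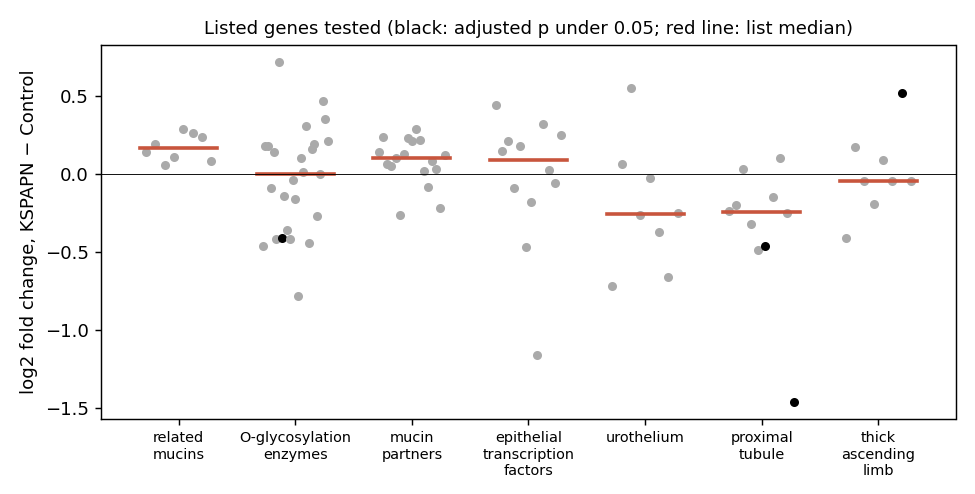
Log2 fold change (KSPAPN minus Control) of the tested genes of 7 lists, with black points where edgeR's adjusted p was under 0.05 and a red line at the median of each list. The related mucins and mucin partners hold no black point, and the lowest point is *Slc7a13* at -1.46.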

How the data were processed

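The authors selected poly(A) RNA by oligo(dT), sequenced 6 libraries and deposited, per gene, raw read counts without normalization and FPKM scaled by gene length and library size. Which library total the FPKM used, which build and annotation, and whether strand was counted is not given in the sources used here. Processing notes of the submitters name STAR 2.5, TopHat, HTSeq 0.6.1, DESeq2 and edgeR without roles. Totals were 17183358 to 20871173 reads per library. Intervals and limits cover counting error only. Identifiers were matched to GENCODE M21 (GRCm38) for 54495 of 54532 genes, and 3 of the 4 members matched a RefSeq start window. Counts were tested with edgeR 4.0.16 in R 4.3.3 (TMM, minimum count 10, minimum total 15, quasi-likelihood test, two-sided, Benjamini-Hochberg adjustment over 16017 genes). The test was also run on simulated counts, with the same dispersion for every gene and no differences between libraries of a group beyond their totals. That run cannot show how the test does where spread differs between genes or libraries. The standard error is the log2 fold change divided by the square root of its F statistic. CPM were computed from the deposited counts. Alternatives were DESeq2 1.42.0, limma 3.58.1 on log2(FPKM + 1) and log2(FPKM + 0.1), RLE factors, total counts only, no filter, a replicate block and each library left out. Plots were drawn with matplotlib 3.10.9.

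The members and lists were chosen with earlier results of these data known. Named genes are the members, list genes and neighbours past the threshold or most abundant in their list, the nearest neighbours, the genes most correlated with a member and those next to *Muc13* by fold change. Genes named beside these, such as *Clstn3*, *Hnf4g*, *Grb2*, *Adam17*, *Upk3a*, *Havcr1*, *Lcn2*, *Cd44*, *Clu*, *Cldn10*, *Ehf*, *Tfap2b*, *Erbb3* and the hepatocyte genes, were chosen after their values were seen. The values of 1 list gene are not reported here.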

Additional observations from a re-analysis of the deposited data

How the results depend on the processing

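The log2 fold change of *Muc13* was between 1.65, with limma on log2(FPKM + 1), and 1.84, with total counts only, and 1.50 to 1.93 with each library left out in turn. That of *Muc1* was 0.26 to 0.48 and that of *Muc20* -0.36 to 0.042 with a library left out, and no alternative moved any of the 3 by more than 1 SD of the libraries within groups. Counts of genes depended on the setting. Of all genes tested, 424 passed in edgeR, 266 with total counts only, 923 in DESeq2, 1339 with no filter on low counts, 128 and 119 with limma at pseudocounts of 1 and 0.1, and 39 to 733 with a library left out, lowest without Control replicate 1 and highest without KSPAPN replicate 1. It was 125, 276 and 65 without Control replicate 2, KSPAPN replicate 2 and KSPAPN replicate 3. With total counts only, the lists held 0 calls for O-glycosylation enzymes, 1 for proximal tubule, 0 for distal convoluted and connecting tubule and 0 for hepatocytes. DESeq2 gave 2 for thick ascending limb (1 higher and 1 lower), 2 for intercalated cells, 1 for tubular injury, 2 for hepatocytes, 2 for epithelial transcription factors and 5 for neighbours. No filter gave 2 for O-glycosylation enzymes, 4 for proximal tubule, 2 for thick ascending limb, 3 for distal convoluted and connecting tubule, 1 for principal cells, 2 for intercalated cells, 1 for tubular injury, 2 for hepatocytes, 3 for epithelial transcription factors and 6 for neighbours. Both limma fits gave 0 for O-glycosylation enzymes, proximal tubule, thick ascending limb, distal convoluted and connecting tubule and hepatocytes. With a library left out, the counts were 0 to 0 for O-glycosylation enzymes, 0 to 2 for proximal tubule, intercalated cells and epithelial transcription factors, 0 to 1 for thick ascending limb, distal convoluted and connecting tubule, tubular injury and hepatocytes, and 2 to 6 for neighbours. The hepatocyte gene *Ttr*, also a plasma protein gene, was the 1 call among 6 tested hepatocyte markers (log2 fold change -1.17, adjusted p = 0.0388 from edgeR, 0.148 without KSPAPN replicate 3, 0.175 without Control replicate 1 and 0.109 without Control replicate 2). The cause of these changes was not tested.

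Libraries share replicate numbers across groups, but the labels do not say that a number marks a shared litter or batch. Deviations from the group means correlated at 0.0537, 0.154 and 0.173 for the numbers 1, 2 and 3, and every library correlated best with its own number. These correlations are small, and with 3 libraries per group they cannot show whether the numbers mark pairs. With the replicate block, 929 of all genes passed, 2 O-glycosylation enzymes, 2 of the thick ascending limb, 2 of principal cells, 3 epithelial transcription factors and 6 neighbours, and the log2 fold changes of *Muc13*, *Muc1* and *Muc20* were 1.73, 0.33 and -0.18 (standard errors 0.19, 0.12 and 0.11). *Muc15* could not be compared at this depth.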
